A study of Arabidopsis thaliana with 36 samples.

Results

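SAUR genes (SMALL AUXIN UP RNA) form one of the large plant families whose RNA responds quickly to auxin. The members described here are the genes whose description in the deposited table names a SAUR-like auxin-responsive protein, in any case of the letters. That rule took 78 of the 28496 named genes. It used no expression value.

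RNA was sequenced from shoots and roots of Arabidopsis thaliana seedlings of WT (Col-0) and of 2 overexpressor lines, 35S:PHT5;1-GFP#04 (line 4) and 35S:PHT5;1-GFP#12 (line 12), in which the 35S promoter drives a fusion of PHT5;1, a carrier of inorganic phosphate (Pi) into the vacuole, in most cell types. Each of the lines is a separate transgenic line of the same construct. Seedlings grew for 10 days on 250 μM Pi, and the starved groups then spent 1 or 3 more days on 10 μM Pi. With 2 tissues, 3 genotypes and 3 Pi supplies there were 18 groups of 2 libraries, each from a pool of seedlings, and starved seedlings were older than Pi-sufficient ones by the days of starvation, so that age and starvation cannot be told apart. PHT5;1 (AT1G63010) ranged from 14.7 to 19.9 RPKM (reads scaled to gene length in kilobases and to library depth) over the 6 WT shoot libraries, from 18.9 to 35.5 in line 4 and from 52.6 to 93.8 in line 12. In roots it ranged from 28.2 to 41.7 in WT, from 52.1 to 92.4 in line 4 and from 306 to 399 in line 12. The shoot ranges of line 4 and WT overlapped.

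Auxin raises SAUR transcripts through the release of auxin response factors from Aux/IAA repressors, and SAUR messages and proteins are short-lived. Many SAUR proteins bind and inhibit clade D protein phosphatases (PP2C.D) at the plasma membrane, which leaves proton pumps such as AHA1 and AHA2 active, so that the wall is acidified and cells expand. In shoots, SAUR genes are known as growth genes that also answer to light, temperature, brassinosteroid and the circadian clock.

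Most members were short genes without introns, and many lay side by side. RefSeq annotated 71 of the 78 with a single exon, and their coding sequences ran from 261 to 573 bases with a median of 363. Of the members, 30 lay in 5 tandem clusters of 4 or more, defined by AGI locus numbers that follow each other at steps of at most 60. The largest, on chromosome 1 (chr1:10301377-10323239), held 8 members, SAUR61 to SAUR67 and AT1G29490, and is called the SAUR61 cluster here. The others were the SAUR1 cluster of 7 members on chromosome 4 (SAUR49, SAUR50 and SAUR1 to SAUR5; chr4:16577180-16599568), the SAUR19 cluster of 6 on chromosome 5 (SAUR19 to SAUR24; chr5:5962773-5984308), the SAUR26 cluster of 5 on chromosome 3 (SAUR26 to SAUR29 and SAUR73; chr3:976715-983768) and the SAUR13 cluster of 4 on chromosome 4 (SAUR13 to SAUR16; chr4:18121526-18131284). Coordinates are those of the RefSeq annotation of TAIR10.1.

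Copies within the SAUR19 cluster had 87.7 to 95.3% identical coding bases over their 6 members. In the SAUR61 cluster identity ran from 49.4 to 89.9%, in the SAUR26 cluster from 52.9 to 86.3%, in the SAUR13 cluster from 56.4 to 71.6% and in the SAUR1 cluster from 49.6 to 66.4%. How reads that match several copies were assigned is not given in the sources used here, so the split of a signal between members of the SAUR19 cluster is uncertain.

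Stretches of 30 bases upstream of members are shown because a short motif recurred there in all 5 clusters, whichever way their members moved in the shoot. In the 300 bases from 250 before to 50 after the annotated gene start, CATGTG on either strand was found in 41.0% of the 78 members and in 13.1% of 27995 promoters of the same length. It was present in 8 of 8 promoters of the SAUR61 cluster, 5 of 5 of the SAUR26 cluster, 3 of 6 of the SAUR19 cluster, 4 of 7 of the SAUR1 cluster and 3 of 4 of the SAUR13 cluster. SAUR20, SAUR23 and SAUR24 held none in the window. Each line runs from 5′ to 3′ on the strand of the gene, and the capitals mark CATGTG or its reverse complement.
SAUR62 (chr1:10303510-10303539, minus strand): gaaatttataccCACATGatcatgtcttct
SAUR63 (chr1:10305284-10305313, minus strand): agggttcataccCACATGatcatgtcttct
SAUR64 (chr1:10306673-10306702, minus strand): aagattcatactCACATGgtcatgtcttct
SAUR66 (chr1:10320963-10320992, plus strand): aattttgataccCACATGatcatgtcttct
SAUR67 (chr1:10322369-10322398, plus strand): aggattcataccCACATGatcttgtcttct
SAUR27 (chr3:980829-980858, plus strand): tatagcatttgtCATGTGatatgttcttgg
SAUR26 (chr3:982968-982997, plus strand): tgagaacataacCATGTGaggaaaattttg
SAUR19 (chr5:5963511-5963540, minus strand): taaagacagaacCATGTGaactcttgctct
SAUR21 (chr5:5968298-5968327, plus strand): taaagacagaacCATGTGagctctgttcta
SAUR22 (chr5:5975175-5975204, minus strand): tagagacagaacCATGTGaactcttgctct
SAUR1 (chr4:16591096-16591125, plus strand): acaaggcataagCATGTGaacttcatccat
SAUR3 (chr4:16594280-16594309, plus strand): gatgagctaagcCATGTGagccagatggat
SAUR5 (chr4:16598877-16598906, plus strand): aatgagttaagcCATGTGagaagatatata
Outside the motif, the most alike windows of the SAUR61 cluster, those of SAUR63 and SAUR67, shared 22 of 24 bases. In the SAUR19 cluster the most alike, those of SAUR19 and SAUR22, shared 23 of 24. In the windows shown, the motif began 105 bases before the gene start in SAUR22 and 95 in SAUR64. Other pairs shared fewer of these 24 bases, with 6 for SAUR26 and SAUR27 and 5 for SAUR63 and AT1G29490, whose window is not shown. In the SAUR1 cluster at most 12 were shared between any pair.

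The whole promoters of SAUR22 and SAUR64, a member of each of the clusters with the widest swings in the shoot, are given with the same capitals.
SAUR22 (chr5:5975038-5975337, minus strand): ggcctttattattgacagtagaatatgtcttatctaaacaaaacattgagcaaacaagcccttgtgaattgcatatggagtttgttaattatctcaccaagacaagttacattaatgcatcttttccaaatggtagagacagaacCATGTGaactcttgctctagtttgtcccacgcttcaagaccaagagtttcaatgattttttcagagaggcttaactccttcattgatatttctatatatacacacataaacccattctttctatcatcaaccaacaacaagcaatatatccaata
SAUR64 (chr1:10306546-10306845, minus strand): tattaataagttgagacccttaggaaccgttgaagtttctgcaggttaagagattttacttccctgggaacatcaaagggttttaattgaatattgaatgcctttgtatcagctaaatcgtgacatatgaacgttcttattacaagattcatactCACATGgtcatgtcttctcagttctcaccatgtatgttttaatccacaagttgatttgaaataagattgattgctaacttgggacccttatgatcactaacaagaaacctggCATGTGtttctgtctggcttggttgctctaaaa
Other short motifs were less frequent among the members or as frequent as elsewhere. TGTCTC, the textbook core of the auxin response element, was in 14.1% of the members' promoters and in 14.1% of all promoters. By cluster it was in 3 of 8 promoters of the SAUR61 cluster, 2 of 6 of the SAUR19 cluster, 1 of 4 of the SAUR13 cluster and none of the SAUR26 and SAUR1 clusters. TGTCGG was in 2.56% and 5.12%. CACGTG, the G-box, was in 1.28% of the members and 7.67% of all. GNATATNC, the form bound by the phosphate regulator PHR1, was in 2.56% and 6.22%. AAAATATCT, the evening element of clock-controlled genes, was in 0 of 78 and in 2.8% of all. Motifs were sought on both strands and none of them contains another. A match describes the letters in the window and is not a binding site. Annotated starts differ between releases, and the RefSeq length equalled the length in the deposited table for 10 of the 78 members.

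Values were read at a depth of 23.5 to 37.2 M reads per shoot library and 19.0 to 40.7 M per root library, as recovered from the RPKM of single-exon genes. For 73 of the 78 members, RPKM, gene length and library total gave whole reads within 0.02 in every library. A count of 3 reads corresponded to 0.0289 to 0.578 RPKM, depending on gene length and library. Members entered the fit of a tissue when their 18 libraries averaged 0.25 RPKM or more, which held for 62 in the shoot and for 40 in the root. Of these, 34 passed in both tissues, 28 in the shoot alone and 6 in the root alone. The remaining 10 (SAUR2, SAUR11, SAUR17, SAUR18, SAUR25, SAUR39, SAUR43, SAUR47, SAUR73 and SAUR75) never exceeded 0.674 RPKM in any library and were not tested. No member was at 0 in all 36 libraries, and 28 were above 0 in every one. In the 8 markers of green tissue and the 8 of root tissue fixed for the check, 8 of 8 green markers were higher and 8 of 8 root markers lower in WT shoots than in roots.

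In shoots the highest member was SAUR78, whose protein is known to bind ethylene receptors and to promote leaf growth, with a mean of 73.9 RPKM over the 18 libraries (38.9 to 109). SAUR50, a light-induced gene of cotyledon opening, followed with 37.8 (15.9 to 72.0) and SAUR14 with 35.8 (18.6 to 59.5). SAUR31, SAUR6, SAUR59, SAUR16 and SAUR49 had means from 18.5 to 27.9 RPKM. In roots SAUR32, known from apical hook growth, led with 102 RPKM (73.6 to 130), followed by SAUR31 with 95.7 (71.6 to 123) and SAUR37 with 49.9 (34.1 to 78.5). SAUR59, SAUR78, SAUR36, SAUR49 and SAUR50 had root means from 18.3 to 48.4 RPKM. In both orders the ranges of all neighbours overlapped.

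Shoot and root used different members. Of the 68 members that entered the comparison of WT at sufficient Pi, 28 had passed the filter in the shoot alone and 6 in the root alone, so that a difference between tissues was built into their choice, and the test is given for the 34 that passed in both. Of these, 9 were higher in shoots and 15 in roots (limma on log2(RPKM + 0.25), with calls where the adjusted p was under 0.05 and the means differed at least 2 times). Over all genes that passed in both tissues the shares called were 13.9% higher and 33.1% lower in the shoot. The median log2 difference was -0.63 over the 34 members and -0.62 over these genes, and after rescaling of the libraries the split was 10 higher and 11 lower. SAUR36 was at 4.37 and 4.01 RPKM in the WT shoot libraries and at 33.5 and 31.5 in the root, a log2 difference of -2.88 (SE 0.21, adjusted p = 6.2e-12). SAUR16 was at 18.8 and 14.8 RPKM in the shoot and at 1.96 and 2.65 in the root, a log2 difference of 2.74 (SE 0.34, adjusted p = 1.11e-07). In both cases the libraries of one tissue lay far from those of the other. SAUR71 (log2 4.55), SAUR67 and SAUR66 were also higher in the shoot, and SAUR55 (log2 -4.01), SAUR74 and SAUR32 in the root.

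The members that passed in a single tissue are given by their values only. SAUR14 was at 34.9 and 29.0 RPKM in WT shoots and at 0 and 0.258 in WT roots, and SAUR37 at 0 and 0.197 in shoots and at 43.0 and 43.3 in roots.

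The clusters were divided in the same way. In the SAUR19 cluster 5 of 6 members passed the filter in the shoot alone, as did 4 of the 4 tested of the SAUR26 cluster and 5 of 8 of the SAUR61 cluster. SAUR22 was at 0 RPKM in all 18 root libraries. In the SAUR1 cluster, SAUR50 was called higher in the shoot and SAUR4 in the root, and SAUR1 and SAUR3 passed in the shoot alone. SAUR4 had 17.9 and 14.8 RPKM in WT roots and 1.76 and 1.58 in WT shoots.

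**Figure D1:**
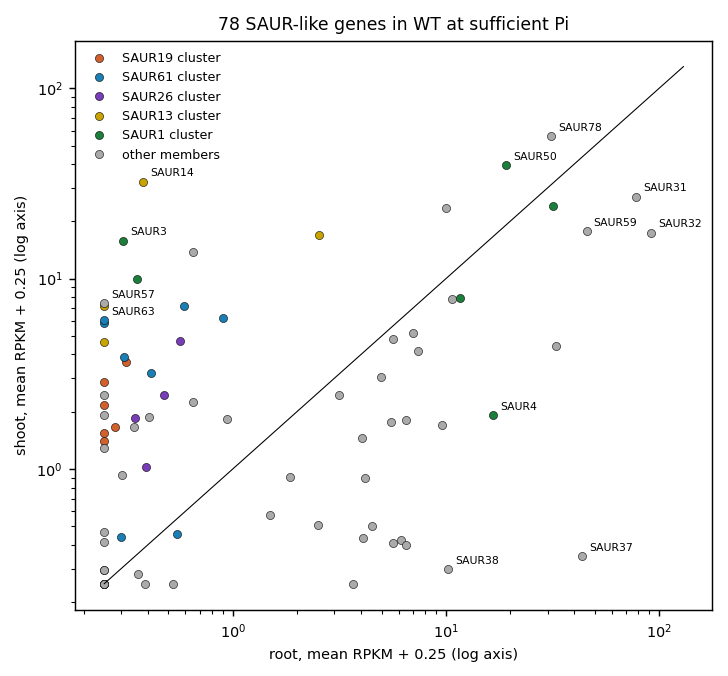
Mean RPKM plus 0.25 of the 78 members in WT at sufficient Pi, in the root (x axis) and the shoot (y axis), both on log axes, with each point a gene and the mean of 2 libraries, and the line marking equal levels. Members of the SAUR19, SAUR61 and SAUR26 clusters lie at or left of 1 RPKM in the root, whereas SAUR37 and SAUR38 lie near the floor of the shoot axis.

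Pi starvation of WT shoots moved members in both directions after 1 day and almost only upwards after 3 days. After 1 day 9 of 62 members rose and 10 fell, against 3.94% and 2.13% of all genes tested. After 3 days 19 rose and 1 fell, against 4.32% and 2.48%. The median log2 fold change was 0.14 after 1 day and 0.33 after 3 days over the members, and -0.11 and -0.14 over all genes. Both comparisons share the WT libraries at sufficient Pi.

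SAUR24, a gene of the SAUR19 cluster whose products promote cell expansion, had 1.22 and 1.37 RPKM at sufficient Pi (8 and 10 reads), 9.17 and 9.76 after 1 day (69 and 66 reads) and 12.1 and 8.58 after 3 days (97 and 74 reads). Both starved groups lay above both Pi-sufficient libraries. The log2 fold change was 2.65 (SE 0.32, adjusted p = 9.24e-05) after 1 day and 2.76 (SE 0.32, adjusted p = 7.81e-05) after 3 days. SAUR64, of the cluster that includes the filament and hypocotyl growth gene SAUR63, went from 2.97 and 2.93 to 9.05 and 9.78 and then to 15.6 and 13.6 RPKM. Its groups did not overlap at any step (log2 1.59 after 1 day and 2.21 after 3 days, SE 0.21 for both).

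More of the other copies of these clusters were called after 3 days than after 1 day. After 1 day, SAUR19, SAUR21 and SAUR24 of the SAUR19 cluster, SAUR64 alone of the SAUR61 cluster and SAUR26 alone of the SAUR26 cluster were called higher. The median log2 fold changes of the 3 clusters were then already 0.92, 0.68 and 0.67. Their lowest values were -0.04, 0.35 and 0.58, so most copies without a call had also risen. After 3 days the calls were 6 of 6, 6 of 8 and 4 of 4 tested, with median log2 fold changes of 1.51, 1.34 and 1.55. SAUR22 had 1.37 and 0.921 RPKM at sufficient Pi, 1.19 and 0.993 after 1 day and 4.40 and 3.31 after 3 days, so that only the last group stood apart. SAUR28, SAUR67, SAUR26 and SAUR65 rose by log2 1.52 to 1.82 after 3 days. The rest of the 19 were SAUR9, SAUR46 and SAUR60 and further copies of the 3 clusters, down to a log2 fold change of 0.94.

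The SAUR1 cluster went the other way after 1 day and had no call after 3 days. SAUR1 fell from 10.1 and 9.42 RPKM to 3.28 and 2.07 after 1 day (log2 -1.80, SE 0.30, adjusted p = 0.000852) and was at 6.82 and 7.72 after 3 days. SAUR3 fell from 16.9 and 14.4 to 4.98 and 3.66 RPKM (log2 -1.81) and was at 11.2 and 13.2 after 3 days. SAUR5 (log2 -1.84), SAUR49 and SAUR50 fell too, which makes 5 of the 6 tested members after 1 day, and none of the 6 was called after 3 days. SAUR50, among the most abundant, had 40.2 and 38.2 RPKM at sufficient Pi, 15.9 and 23.0 after 1 day and 56.8 and 52.6 after 3 days.

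Members outside these clusters also answered at 1 day. SAUR48 showed the largest change of any member, from 0.157 and 0.280 RPKM (2 and 4 reads) to 5.03 and 7.18 (74 and 95 reads), and its 3-day libraries differed from each other, with 1.72 and 0.178 RPKM. Its 1-day log2 fold change was 3.75 (SE 0.64, adjusted p = 0.00112). SAUR44 fell from 4.07 and 3.80 to 1.5 and 0.334 RPKM (log2 -2.05, SE 0.38), and SAUR13 fell by 1.28 on the log2 scale. SAUR36, a gene known from leaf senescence, was the only member called lower after 3 days (log2 -1.03), from 4.37 and 4.01 to 2.06 and 1.78 RPKM.

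The 1-day count depends on the control libraries. Leaving out either WT library at sufficient Pi took it from 19 to 12 members, and leaving out together 5 second-replicate shoot libraries, which alone hold reads in 313 genes (0 of them members), took it to 10 after 1 day and from 20 to 13 after 3 days. The 313 genes are those with reads in all 5 of these libraries, and 627 genes had reads only within them. With a library left out, or with these 5, a group may hold 1 library, which is then assumed to vary like the other groups. Rescaling the libraries by their median ratios changed the 1-day split from 9 higher and 10 lower to 11 and 6, and SAUR36 was then not called after 3 days.

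**Figure D2:**
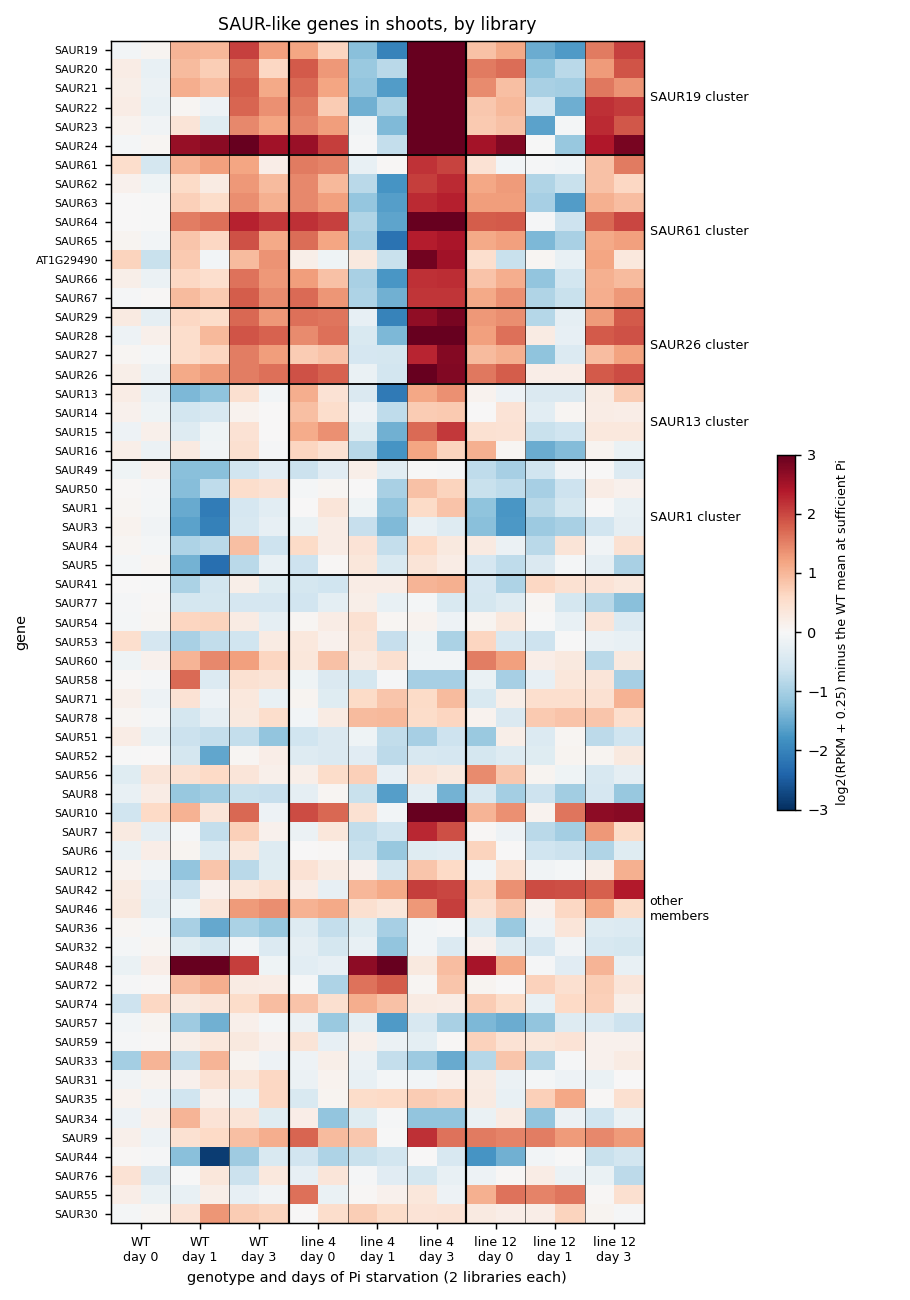
The 62 members tested in the shoot (rows, grouped by tandem cluster) in the 18 shoot libraries (columns, 2 for each genotype and number of days of Pi starvation), coloured by log2(RPKM + 0.25) minus the WT mean at sufficient Pi, on a scale cut at -3 and 3. The SAUR19, SAUR61 and SAUR26 clusters are red in WT after 3 days and in both lines at day 0, blue in both lines at day 1 and darkest red in line 4 at day 3.

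At sufficient Pi, both lines had more RNA of the same 3 clusters in the shoot than WT. In line 12, 18 of 62 members were higher and 4 lower, against 7.06% and 1.98% of all genes tested. In line 4, 17 were higher and 0 lower, against 2.59% and 0.622% of all genes. Both comparisons use the same WT libraries. In bulk shoots fewer cells of a type and less RNA per cell cannot be told apart.

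SAUR24 had 8.50 and 10.4 RPKM in line 12 and 8.98 and 6.20 in line 4, beside 1.22 and 1.37 in WT. All 4 libraries of the lines lay above WT, with log2 fold changes of 2.64 (SE 0.32, adjusted p = 7.25e-05) in line 12 and 2.32 (SE 0.32, adjusted p = 0.00101) in line 4. SAUR64 had 11 and 11.2 RPKM in line 12 and 14.4 and 13.1 in line 4, beside 2.97 and 2.93 in WT (log2 1.83 and 2.13). SAUR26, known from natural variation in growth at warm temperature, had 7.08 and 8.31 RPKM in line 12 and 8.94 and 8.04 in line 4, beside 2.52 and 1.90 in WT (log2 1.70 and 1.84).

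By cluster, line 12 had calls for 5 of 6 members of the SAUR19 cluster, 5 of 8 of the SAUR61 cluster and 4 of 4 tested of the SAUR26 cluster, and line 4 for 4, 7 and 3 of them. SAUR20 was higher in both (log2 1.62 and 1.57). SAUR9, which also binds PP2C.D phosphatases, was at 6.33 and 6.03 RPKM in line 12 and 2.24 and 1.75 in WT (log2 1.53), and SAUR28, SAUR29, SAUR61 and SAUR67 were higher in line 4 by log2 1.52 to 1.63. The 4 members lower in line 12 were SAUR44, SAUR3, SAUR1 and SAUR57. SAUR1 had 4.11 and 2.74 RPKM there and 9.81 and 12.6 in line 4, beside 10.1 and 9.42 in WT (log2 -1.47 in line 12, SE 0.30, adjusted p = 0.00258, and 0.19 in line 4, SE 0.30).

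The line 4 count rests on few libraries. Without the second WT library or without the first line 4 library it was 6 in place of 17, and without the 5 libraries named above it was 2. For line 12 it was 8 in place of 22 without those 5, which include 1 library of line 12 and 1 of WT at sufficient Pi.

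After 1 day of Pi starvation the order was reversed. In line 12, 19 of 62 members were lower than in WT and 9 higher, against 3.98% and 7.37% of all genes. In line 4, 17 were lower and 7 higher, against 2.76% and 3.08%. The median log2 fold change was -0.38 in line 12 and -0.29 in line 4 over the members, and 0.19 and 0.11 over all genes. The counts were 21 to 34 for line 12 and 19 to 25 for line 4 under the alternatives that kept all libraries or left out the 5 together.

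SAUR24 stood at 1.28 and 0.449 RPKM in line 12 (13 and 4 reads) and at 1.25 and 0.683 in line 4 (11 and 5 reads), beside 9.17 and 9.76 in WT. The log2 fold changes were -3.23 (SE 0.32, adjusted p = 1.19e-05) and -3.04 (SE 0.32, adjusted p = 3.36e-05). SAUR64 stood at 2.89 and 1.84 RPKM in line 12 and 1.47 and 0.815 in line 4, beside 9.05 and 9.78 in WT (log2 -1.92 and -2.84). SAUR19 had 0.528 and 0.421 RPKM in line 12 and 0.669 and 0.293 in line 4, beside 4.20 and 4.13 in WT (log2 -2.61 and -2.64). None of these libraries overlapped with those of WT.

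The 3 clusters moved nearly as wholes. Calls lower than WT covered 5 of 6 members of the SAUR19 cluster in each line, 7 of 8 of the SAUR61 cluster in each line, and 3 of 4 tested of the SAUR26 cluster in line 12 and 4 of 4 in line 4. Median log2 fold changes were -1.93, -1.54 and -1.08 in line 12 and -2.12, -1.98 and -1.63 in line 4. SAUR16 of the SAUR13 cluster, a gene of cotyledon opening in light, was lower too, with 20.1 and 15.5 RPKM in WT, 5.80 and 6.64 in line 12 and 9.22 and 4.70 in line 4. SAUR48 was at 0.201 and 0.115 RPKM in line 12 (log2 -3.95, SE 0.64, adjusted p = 0.00036) and at 2.73 and 5.87 in line 4, where it was not called (log2 -0.55, SE 0.64).

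Other members were higher in the lines than in WT after 1 day, among them SAUR1, SAUR5 and SAUR44, which had fallen in WT. SAUR44 had 3.73 and 3.87 RPKM in line 12 and 2.37 and 2.62 in line 4, beside 1.5 and 0.334 in WT, and SAUR5 had 5.66 and 7.32 and 9.84 and 5.51, beside 2.74 and 1.40. Both were called in each line, as were SAUR1, SAUR41, SAUR42 and SAUR78. SAUR78 had 96.6 and 102 RPKM in line 12 and 108 and 109 in line 4, beside 38.9 and 46.6 in WT (log2 1.22 and 1.35). SAUR42 had 4.67 and 4.58 RPKM in line 12 and 2.29 and 2.53 in line 4, beside 0.579 and 1.13 in WT. The WT libraries of 1 day enter both these comparisons and the WT response at 1 day.

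**Figure D3:**
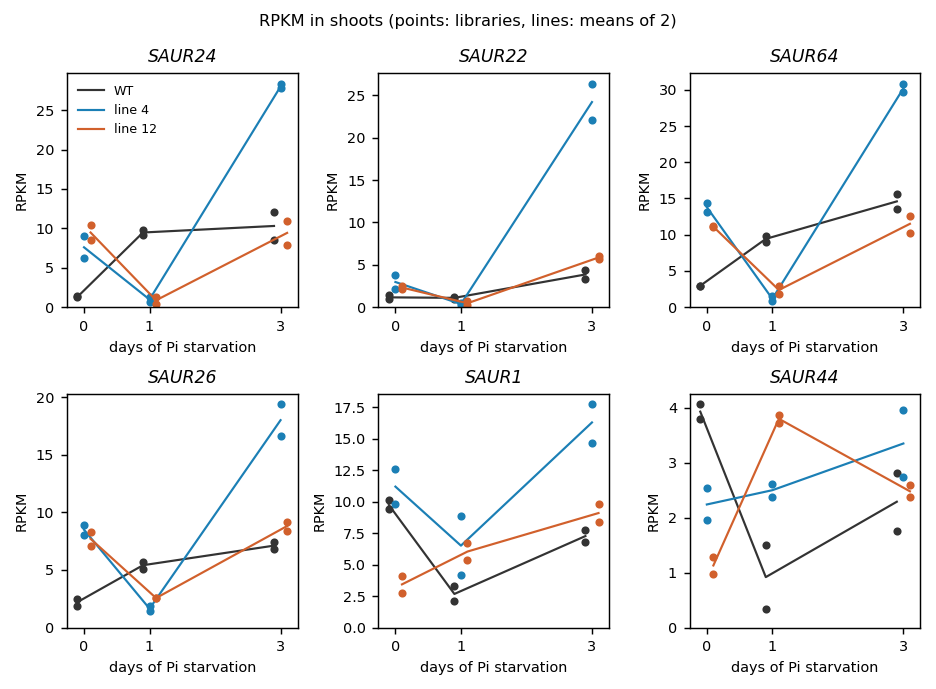
RPKM of 6 members in the shoot against days of Pi starvation, with a point for each library and a line through the means of 2 libraries, for WT, line 4 and line 12. SAUR24, SAUR22, SAUR64 and SAUR26 rise in WT between day 0 and day 3, dip in both lines at day 1 and peak in line 4 at day 3, at 28.3 and 27.8 RPKM for SAUR24, whereas SAUR1 and SAUR44 dip at day 1 in WT.

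The reversal between sufficient Pi and 1 day of starvation was compared between sets of libraries that have none in common. In line 12, 14 of the 18 members higher than WT at sufficient Pi were lower than WT after 1 day, and in line 4 14 of 17. That is 22.6% of the members tested in each line, beside 1.66% of all genes in line 12 and 0.516% in line 4. Among all genes called higher at sufficient Pi, 23.6% were lower at 1 day in line 12 and 19.9% in line 4. In the opposite direction, SAUR1 and SAUR44 were lower in line 12 at sufficient Pi and higher after 1 day. Both lines were set against the same WT libraries. The counts at sufficient Pi fell without the 5 libraries named above, and the reversal was not counted again without them.

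After 3 days the lines parted. In line 12 only SAUR10 and SAUR42 were higher than WT and SAUR60 was lower, out of 62, against 3.62% and 4.07% of all genes. In line 4, 22 members were higher and SAUR60 was lower, against 3.81% and 4.4%. The median log2 fold change was -0.02 in line 12 and 0.61 in line 4 over the members, and 0.19 and 0.16 over all genes. Both lines were set against the same WT libraries.

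SAUR22 had 22.1 and 26.3 RPKM in line 4 (316 and 301 reads) and 6.07 and 5.62 in line 12, beside 4.40 and 3.31 in WT (63 and 51 reads). Line 4 lay above every other shoot library (log2 2.58, SE 0.31, adjusted p = 4.51e-05), and line 12 was not called (log2 0.58, SE 0.31). SAUR24 had 28.3 and 27.8 RPKM in line 4 and 7.92 and 10.9 in line 12, beside 12.1 and 8.58 in WT. SAUR21 had 37.8 and 38.9 RPKM in line 4 and 10.5 and 8.88 in line 12, beside 12.4 and 7.66 in WT (log2 1.95 in line 4).

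All 6 members of the SAUR19 cluster, 4 of 4 tested of the SAUR26 cluster and 5 of 8 of the SAUR61 cluster were called higher in line 4, with median log2 fold changes of 2, 1.28 and 1.03. SAUR10 had 4.94 and 6.29 RPKM in line 4 and 2.19 and 2.26 in line 12, beside 1.01 and 0.0933 in WT, where the 2 libraries differed by more than 10 times (log2 3.15 in line 4, SE 0.59). SAUR15, also known as SAUR-AC1, had 14.7 and 19.7 RPKM in line 4 and 5.51 and 5.53 in line 12, beside 6.01 and 4.41 in WT, and SAUR7, SAUR20, SAUR23 and SAUR28 were higher in line 4 by log2 1.68 to 2.36. In line 4, 13 of the 17 members lower than WT after 1 day were higher than WT after 3 days, 21.0% of the members tested beside 0.0759% of all genes.

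The count for line 4 was 14 without the 5 libraries named above, which include the second WT library of 3 days, and 15 after rescaling (14 higher and 1 lower). That for line 12 was 1 without the first line 12 library and 1 without the 5.

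**Figure D4:**
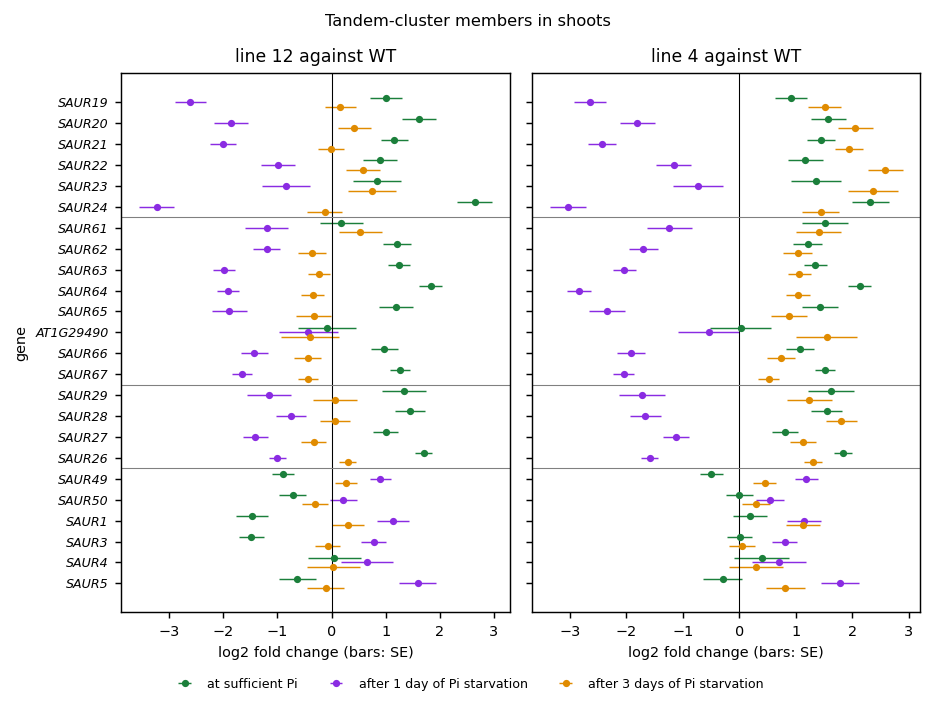
Log2 fold change of line 12 (left) and line 4 (right) against WT in the shoot for 24 members of the SAUR19, SAUR61, SAUR26 and SAUR1 clusters, from top to bottom, with a colour for each Pi supply and bars for the standard error from limma. In both panels most members of the upper 3 clusters lie right of 0 at sufficient Pi and left of 0 after 1 day, and after 3 days they lie near 0 in line 12 and right of it in line 4.

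The response to 3 days of starvation differed between line 12 and WT for 20 of 62 members, 6 with a more positive and 14 with a more negative difference, against 19.9% and 13.3% of all genes at an adjusted p under 0.05. The members' shares were 9.68% and 22.6%, and 33.2% of all genes were called in either direction. SAUR24 rose in WT by 2.76 on the log2 scale and in line 12 was at 8.50 and 10.4 RPKM before and 7.92 and 10.9 after 3 days (difference of responses -2.77, SE 0.46, adjusted p = 0.000442). SAUR60 (-2.57), SAUR64 (-2.18) and SAUR56 (-1.73) had differences of the same sign, and SAUR1 (1.78) and SAUR44 (1.74) of the other. For line 4, 9 members differed, 6 with a more positive and 3 with a more negative response, against 18.3% and 11.5% of all genes. SAUR41 (1.70), SAUR42 (1.64), SAUR7 (1.59), SAUR36 (1.52) and SAUR22 (1.42) had more positive and SAUR60 (-1.63) more negative responses in line 4. That count was 5 without the first WT library of 3 days and 4 without the 5 libraries named above, and rescaling changed its split to 5 and 4. For line 4 the members' shares were below those of all genes.

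Clock genes also differed between these shoots, and their values stand beside the results because SAUR genes are under clock control. The list was drawn up after the members' values were seen. CCA1, a morning gene of the clock, ranged from 1.44 to 2.75 RPKM in the 6 WT libraries and from 2.27 to 3.97 in the 4 libraries of the lines at sufficient Pi, and from 0.344 to 0.619 in the 8 libraries of the lines after 1 and 3 days. PRR9 had 0.389 and 0.369 RPKM in WT at sufficient Pi, 2.03 and 2.59 after 1 day and 1.53 and 1.91 after 3 days, 1.02 to 2.73 in the lines at sufficient Pi, and 0.117 to 0.407 in the lines after 1 and 3 days. GI was at 31.4 to 38.0 RPKM in the lines at sufficient Pi and at 13.5 to 18.8 in the lines after 1 and 3 days, beside 22.5 to 46.3 in WT. Of the 11 genes listed, CCA1, PRR9 and RVE8 were called lower than WT in both lines after 1 day and after 3 days, GI was lower in both after 1 day, and PRR9 was higher in both at sufficient Pi. LHY was not among the genes tested in the shoot, and PRR7, PRR5, TOC1, LUX, ELF3 and ELF4 were not called in any comparison between groups there. TOC1 and ELF3 had positive log2 fold changes in line 12 after 1 day (0.45 and 0.52). CCA1 in line 4 was at 0.489 and 0.589 RPKM after 1 day and at 0.438 and 0.418 after 3 days. The time of day of harvest is not given in the sources used here, and the part of these differences in the SAUR results was not tested.

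**Figure D5:**
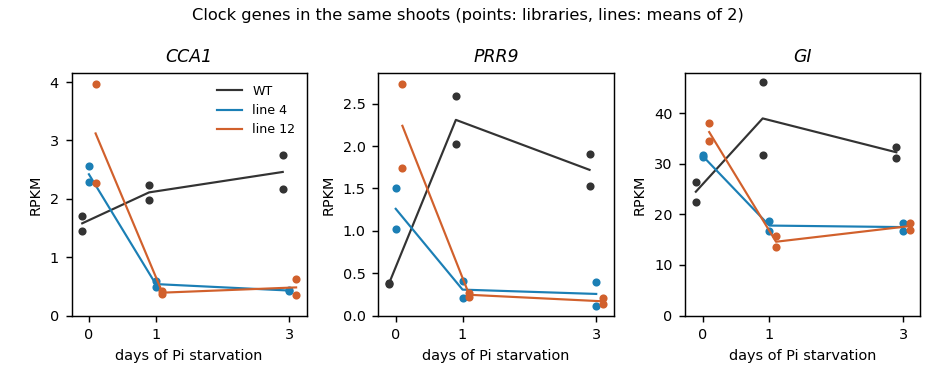
RPKM of the clock genes CCA1, PRR9 and GI in the shoot against days of Pi starvation, with a point for each library and a line through the means of 2 libraries. Both lines lie above WT at day 0 and below it at days 1 and 3, where CCA1 stands at 0.344 to 0.619 RPKM in the lines.

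Other genes of the auxin pathway were described as lists. In WT shoots after 3 days, 2 of 25 Aux/IAA repressors tested were higher (IAA1 and IAA6) and 0 lower, and of 8 synthesis genes YUC5 was higher (log2 1.35) and TAA1 lower (log2 -1.18). Of 6 GH3 genes, whose enzymes conjugate auxin, GH3.3 was lower after both 1 and 3 days (log2 -1.20 and -0.90). IAA1 was higher in WT after 1 day (log2 1.02) and in line 4 at sufficient Pi (1.04), and lower than WT after 1 day in line 12 (-1.67) and line 4 (-1.13). In line 4 after 3 days, 8 of 25 Aux/IAA genes were higher and 0 lower (median log2 0.69, beside 0.61 over the SAUR members), with IAA29 (log2 4.11), IAA19 (1.82) and IAA5 (1.80), with 3 of 8 synthesis genes higher, all of them YUCCA genes (YUC9 log2 3.22, YUC8 2.16 and YUC2 1.41), and GH3.3 (2.62) and GH3.2 (1.18). The 3-day response of line 4 was more positive than that of WT for 16 of 25 Aux/IAA genes and more negative for 1, beside 6 and 3 of the 62 SAUR members. In line 12 it was more positive for 12 and more negative for 2 of the Aux/IAA genes, beside 6 and 14 of the SAUR members. Over all genes, 18.3% were more positive and 11.5% more negative in line 4, and 19.9% and 13.3% in line 12.

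Among 11 effectors of SAUR action, clade D phosphatases and proton pumps, 4 phosphatases had a call in the 8 comparisons between groups of the shoot, and at most 3 of the 11 were called in any one of them. PP2C.D1 was lower in WT after 1 day (log2 -1.36) and in line 12 at sufficient Pi (log2 -1.02), higher than WT in line 12 (1.30) and line 4 (1.03) after 1 day, and higher in line 12 (1.60) and line 4 (3.23) after 3 days. PP2C.D8 was higher in WT after 1 day (1.78) and in line 12 at sufficient Pi (1.30) and lower in line 12 after 1 day (-1.28), PP2C.D7 was higher in WT after 3 days (0.98), and PP2C.D9 was higher in line 12 after 1 day (1.19). Of 8 light and brassinosteroid regulators of growth, 2 were lower in line 12 after 1 day, PIF4 and PIF5 (log2 -1.04 and -1.08). Both were also lower there after 3 days (-1.03 and -1.04), and 1 regulator was higher there at sufficient Pi. In line 4, 2 were lower after 3 days, among them PIF5 (-1.13). Of 20 auxin receptors and response factors, 0 were called in the 8 comparisons between groups of the shoot, and of 12 transport genes only PIN3 was, higher in line 4 after 3 days (log2 1.38). In the differences of responses, which need no fold, 3 of the receptors and factors were more positive and 1 more negative in line 12 and 4 and 1 in line 4. Of the transport genes these were 5 and 1 in line 12 and 5 and 2 in line 4. Of the light and brassinosteroid regulators, 0 were more positive, and 4 in line 12 and 5 in line 4 were more negative. The shares of all genes were 19.9% more positive and 13.3% more negative in line 12, and 18.3% and 11.5% in line 4. None of the 8 green-tissue markers was called in the comparisons between groups, and 2 in line 12 and 1 in line 4 had a more negative 3-day response. Of the 6 root markers tested, NRT2.1 and PRX57 were lower in WT after 1 and 3 days, NRT2.1 was higher in both lines after 1 day, and PRX57 was higher in line 4 after 3 days (log2 1.11). The part of these markers in the SAUR results was not tested.

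In roots, starvation changed 3 members after 1 day and 12 after 3 days. After 1 day, SAUR8 rose and SAUR44 and SAUR51 fell, 1 and 2 of 40 members tested, against 3.58% and 1.41% of all genes (ratio of at least 1.5 in the root). After 3 days 8 rose and 4 fell, against 8.27% and 4.12%. SAUR6 fell from 9.69 and 9.87 RPKM to 3.63 and 2.33 (log2 -1.66, SE 0.18, adjusted p = 6.03e-06), and after 1 day it had stood at 13.0 and 10.6. SAUR44 fell from 8.18 and 6.14 to 2.54 and 3.92 RPKM (log2 -1.10), and SAUR76 (-1.07) and SAUR51 fell as well.

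SAUR37, SAUR31 and SAUR78, among the highest root members, rose after 3 days. SAUR37 went from 43.0 and 43.3 to 78.5 and 74.4 RPKM, and SAUR31 from 74.0 and 80.8 to 121 and 113, without overlap. SAUR41, a gene of cell expansion, rose from 8.13 and 5.43 to 14.1 and 13.0 RPKM (log2 1.00, SE 0.19, adjusted p = 0.00104), and SAUR72, SAUR58 and SAUR69 rose by log2 0.83 to 0.92. SAUR21, the shoot gene, was called in the root on values of 0.134 and 0 against 0.332 and 0.663 RPKM. Of 7 green-tissue markers tested in the root, 6 were higher in WT after 1 day and 6 after 3 days, with median log2 fold changes of 0.78 and 0.71, and their part in the root results was not tested. The count of 12 was 7 without the second WT library at sufficient Pi or without the second WT library of 3 days, and that of 3 at 1 day was 1 without the first WT library of 1 day and 5 without the second WT library at sufficient Pi.

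The lines changed few root members. In line 12, 2 of 40 were higher (SAUR41 and SAUR31) and 4 lower (SAUR34, SAUR35, SAUR66 and SAUR38) at sufficient Pi, against 2.41% and 2.69% of all genes. SAUR31 had 119 and 118 RPKM there, beside 74.0 and 80.8 in WT (log2 0.61, SE 0.09, adjusted p = 0.000338), and SAUR38 had 5.96 and 5.97, beside 11.1 and 8.96. The other members called lower rested on few reads, and 2 reads may be the mates of 1 fragment. SAUR34 had 2 and 2 in line 12 and 10 and 23 in WT, SAUR35 4 and 9 beside 37 and 21, and SAUR66 2 and 2 beside 12 and 12. With a mean of at least 1 RPKM required, 1 was lower in place of 4. After 1 day, 0 were higher and SAUR8 was lower, against 2.45% and 3.42%. After 3 days SAUR6, SAUR44 and SAUR36 were higher and SAUR35, SAUR37 and SAUR52 lower, against 2.38% and 2.8%. SAUR37 had 45.3 and 44.1 RPKM in line 12 after 3 days, beside 78.5 and 74.4 in WT (log2 -0.77, SE 0.11, adjusted p = 0.000263).

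In line 4, 0 root members were higher and SAUR44 was lower at sufficient Pi, against 0.701% and 3.74% of all genes. SAUR44 had 3.04 and 4.24 RPKM in line 4 and 8.18 and 6.14 in WT. After 1 day SAUR70 was higher and SAUR31 lower, against 1.37% and 1.79%. After 3 days SAUR44 was higher and SAUR69, SAUR6 and SAUR50 were lower, against 1.26% and 1.76%. SAUR44 then had 6.33 and 7.60 RPKM in line 4 beside 2.54 and 3.92 in WT (log2 1.07, SE 0.20, adjusted p = 0.00386), the opposite of its order at sufficient Pi. These small counts moved with single libraries. Rescaling changed the split for line 12 to 1 higher and 5 lower at sufficient Pi and to 2 and 5 after 3 days. The count for line 12 at sufficient Pi was 2 without the first library of either genotype and 3 without the second WT library, and that after 1 day was 0 to 4. After 3 days it was 3 whichever of the 4 libraries was left out, and the line 4 counts ran from 0 to 3 at sufficient Pi and from 0 to 2 after 1 and after 3 days when a library was left out.

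The 3-day response of the root differed from that of WT for 9 members in line 12, 4 more positive and 5 more negative, against 4.99% and 6.07% of all genes, and for 4 in line 4, 2 each way, against 4.74% and 1.68%. In line 12, SAUR41 (-1.21), SAUR31 (-1.08), SAUR72 (-0.98) and SAUR37 (-0.96), which rose in WT, had more negative responses, and SAUR44 (1.33) and SAUR51 (0.87), which fell in WT, had more positive ones. In line 4, SAUR44 stood at 3.04 and 4.24 RPKM before and 6.33 and 7.60 after 3 days, while it fell in WT (difference 2.01, SE 0.29, adjusted p = 0.00041), SAUR36 differed by 0.60, and SAUR50 (-0.99) and SAUR31 (-0.50) differed the other way. Rescaling changed the split for line 4 from 2 and 2 to 3 and 6.

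Markers and clock genes moved in these roots as well. Of the 7 green-tissue markers, 4 were lower than WT in line 12 after 1 day (median log2 -0.73) and 1 in line 4 after 1 and after 3 days, and 3 had a more negative 3-day response in line 12. GI had 12.2 and 13.9 RPKM in WT roots at sufficient Pi and 34.6 to 43.0 after 1 and 3 days, while line 12 went from 48.4 and 44.3 to between 12.2 and 15.6 and line 4 from 32.2 and 27.7 to between 11.6 and 21.0. GI was higher than WT in line 12 and line 4 at sufficient Pi (log2 1.81 and 1.18) and lower after 1 day (-1.57 and -1.53) and after 3 days (-1.47 and -1.05). PRR9 and PRR7 were higher in line 12 at sufficient Pi (log2 1.76 and 0.95), PRR9 was lower there after 1 day (-1.68) and PRR7 after 3 days (-0.73). The part of these differences in the root results was not tested.

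Responses were compared directly between tissues for the 34 members that passed the filter in both, since a member without reads in the root can only repeat its shoot value. The WT response to 3 days was more positive in shoots for 4 of them and in roots for 2, beside 5.24% and 8.91% of all genes that passed in both. SAUR6 stood at 20.1 and 26.6 RPKM and then 28.9 and 17.6 in WT shoots, while it fell in WT roots as given above (difference 1.63, SE 0.34, adjusted p = 0.0026). SAUR60 (1.43), SAUR66 (1.74) and SAUR67 (1.29) had differences of the same sign, and SAUR41 (-1.10) and SAUR77 (-1.24) of the other. In WT roots SAUR66 had 12 and 12 reads at sufficient Pi and 8 and 12 after 3 days, and SAUR67 8 and 4 and then 14 and 6. Of the 20 members with means of 1 RPKM or more in both tissues, 2 (SAUR6 and SAUR60) were more positive in shoots and 1 (SAUR41) in roots. The count of 6 was 3 without the first shoot WT library at sufficient Pi, the first of 3 days or the second root WT library at sufficient Pi.

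The effect of line 12 at sufficient Pi was more positive in shoots for 5 of the 34 and in roots for 4, beside 8.7% and 6.23% of these genes. SAUR41 had 3.37 and 2.46 RPKM in line 12 and 4.94 and 4.89 in WT in the shoot, and 13.3 and 9.86 beside 8.13 and 5.43 in the root (difference -1.48, SE 0.28, adjusted p = 0.000782). SAUR50 (-1.11), SAUR49 (-1.01) and SAUR31 (-0.58) had differences of the same sign, and SAUR67 (2.48), SAUR66 (2.27), SAUR9 (1.87), SAUR60 (1.60) and SAUR35 (1.53) of the other. SAUR66 and SAUR67 had 12 reads or fewer in the root libraries of these groups. The same WT libraries at sufficient Pi enter both of these tests. The count of 9 was 6 to 11 with a library left out.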

How the data were processed

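Total RNA was sequenced as paired reads. The authors used CLC Genomics Workbench with the TAIR10 genome, and the RPKM they deposited cover 36 libraries. They also deposited mean RPKM, log2 ratios between groups, gene lists and gene ontology p-values, which hold the study's own findings and were not used. The gene length in the deposited table served to recover reads. The sources used here do not give how multiply mapped reads, strand or the mates of a pair were treated. Many low counts were even, and a count may hold both mates of a fragment.

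All 28496 named genes were read, and 146 entries without a gene name (at most 0.109% of summed RPKM) were left out. Names and coordinates of the 78 members came from RefSeq (TAIR10.1), which matched all 78. Genes averaging 0.25 RPKM or more entered the fit as log2(RPKM + 0.25), a scale that understates changes of low genes, with limma 3.58.1 (R 4.3.3), trended variance and Benjamini-Hochberg adjustment over all genes tested. The 9 groups of a tissue entered a common model with 9 residual degrees of freedom. Shoot and root were compared in a model of all 36 libraries, and members were counted there only where they passed the filter in both tissues. Calls needed an adjusted p under 0.05 and means that differed at least 2 times (shoot, tissues) or 1.5 times (root), with means under 0.25 set to 0.25. Differences of responses were called by adjusted p alone. All tests were two-sided, and the fit was tested on simulated data. The study's methods call the libraries of a group biological replicates, each from its own pool of seedlings, and do not say whether they were grown at separate times. The floor of 3 reads covers counting error only.

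Named members were the 8 highest in a tissue, up to 8 called members by size of change in a comparison, up to 6 in a difference of responses, and tandem clusters of 4 or more. Some further members are named as examples, chosen after their values were seen, as were the clock genes. The members and lists were chosen with earlier results of these data known. Alternatives were other pseudocounts (1 and 0.05 RPKM), filters (none, 1 RPKM), rescaling, the replicate number as a block, only the groups compared, the adjusted p alone, and libraries left out. Coding identity was computed with edlib 1.3.9.post1.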

Additional observations from a re-analysis of the deposited data

Results flagged for a closer look

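Responses that differed between genotypes or tissues are given with the log2 difference of responses from limma. In the shoot, the 3-day response of line 12 differed from that of WT for SAUR24 (-2.77), SAUR60 (-2.57), SAUR64 (-2.18), SAUR56 (-1.73), SAUR1 (1.78) and SAUR44 (1.74). That of line 4 differed for SAUR41 (1.70), SAUR42 (1.64), SAUR60 (-1.63), SAUR7 (1.59), SAUR36 (1.52) and SAUR22 (1.42). In the root, line 12 differed for SAUR44 (1.33), SAUR41 (-1.21), SAUR31 (-1.08), SAUR72 (-0.98), SAUR37 (-0.96) and SAUR51 (0.87), and line 4 for SAUR44 (2.01), SAUR50 (-0.99), SAUR36 (0.60) and SAUR31 (-0.50). Between tissues, among the members that passed the filter on low values in both, the WT response to 3 days was more positive in the shoot for SAUR66 (1.74), SAUR6 (1.63), SAUR60 (1.43) and SAUR67 (1.29) and more positive in the root for SAUR77 (-1.24) and SAUR41 (-1.10). The effect of line 12 at sufficient Pi was more positive in the shoot for SAUR67 (2.48), SAUR66 (2.27), SAUR9 (1.87), SAUR60 (1.60) and SAUR35 (1.53) and more positive in the root for SAUR41 (-1.48).

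SAUR60 stood among the 6 leading members of both lines in the shoot. It rose in WT from 1.37 and 1.66 to 3.91 and 2.49 RPKM and went from 4.82 and 3.86 to 0.759 and 1.92 in line 12. SAUR44 had a more positive 3-day response in both lines in the root and in line 12 in the shoot.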

How the results depend on the processing

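No named member changed direction under any alternative run. Without the 5 libraries that share reads in 313 genes, the members called in the shoot went from 19 to 10 in WT after 1 day, from 20 to 13 in WT after 3 days, from 22 to 8 and from 3 to 1 in line 12 at sufficient Pi and after 3 days, from 17 to 2 and from 23 to 14 in line 4 at the same supplies, and from 9 to 4 for the 3-day response of line 4. Rescaling gave 15 in place of 23 for line 4 after 3 days in the shoot and, in the root, 5 in place of 3 for WT after 1 day and 9 in place of 4 for the response of line 4. It moved the median of all genes by log2 0.14 in WT after 3 days, -0.18 in line 12 after 1 and 3 days, -0.15 in line 4 after 3 days and 0.61 between tissues. In the root, no filter gave 1, 1 and 2 for WT after 1 day and line 4 after 1 and 3 days, the adjusted p alone 8, 7 and 2 for WT after 1 day, line 12 after 1 day and line 4 at sufficient Pi, and the groups compared alone 1, 0, 2 and 1 for these and line 4 after 1 day. A mean of 1 RPKM gave 3 for line 12 at sufficient Pi.

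Deviations of same-numbered libraries correlated above 0.1 in 11 of 36 pairs of shoot groups and in 10 of 36 in the root (-0.178 to 0.699 and -0.0688 to 0.238), so the replicate number was not taken as a pairing. A block for it raised the count of line 12 after 3 days in the root from 6 to 10 and moved no other count by over 1.5 times.

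Leaving out a library gave 12 to 14 and 15 to 18 members for WT shoots after 1 and 3 days, 16 to 20, 23 to 26 and 1 to 4 for line 12 at the 3 supplies, 6 to 16, 21 to 22 and 16 to 21 for line 4, and 17 to 23 and 5 to 9 for the responses of lines 12 and 4. In roots it gave 1 to 5 and 7 to 11 for WT, 2 to 4, 0 to 4 and 3 for line 12, 0 to 3, 0 to 2 and 0 to 2 for line 4, and 6 to 9 and 3 to 5 for the responses. Between tissues it gave 53 to 54, 12 to 16 for the WT response and 14 to 22 for the effect of line 12 over all members tested, and 22 to 23, 3 to 5 and 6 to 11 (24, 6 and 9 with all libraries) over those that passed the filter in both, a restriction chosen after seeing the data. A group left with 1 library was assumed to vary like the others, in these fits and without the 5 libraries. Leaving out a library for the differences of responses, and the counts without the clusters of near-identical copies (23 of 28 for line 12 and 19 of 24 for line 4 after 1 day), were chosen after seeing the data. Of 664 values for named members with a library left out, 114 lost their call.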
